A study of Mus musculus with 4 samples.

Results

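Heat shock proteins and chaperones were taken from CD11b-sorted mouse corpus callosum cells by gene symbol. They were every gene whose symbol begins with Hspa, Hspb, Hspd, Hspe or Hsph, with Dnaja, Dnajb or Dnajc and a digit, or with Cct and a digit, together with Hsf1, Bag3, Calr, Canx, Pdia3, Pdia4 and Pdia6. The rule found 80 of the 16342 genes in any of the 4 count tables, and 73 of the 80 were in all 4. The HSP90 genes and Tcp1, a subunit of the chaperonin TRiC, do not match these symbols. Hspb11, Hspbp1 and Hspbap1 match by symbol alone and are kept apart from the small heat shock proteins below.

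Per the labels, the mice were C57BL/6 males, 13 weeks of age, and week 5 animals (2 libraries) had been given cuprizone, while week 0 animals (2 libraries) were not treated. Cuprizone is a copper chelator fed to mice to cause the loss of oligodendrocytes and myelin, and the corpus callosum is the white matter tract in which that loss is usually studied. The tissue was broken up mechanically in cold buffer, and live nucleated cells carrying CD11b, an integrin subunit of myeloid cells, were sorted for droplet libraries that count 1 unique molecular identifier (UMI) for each captured transcript. Whether the 2 libraries of a week came from separate animals is not in the labels, so a p-value here measures only how these libraries spread, and that spread may be technical.

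Molecular chaperones bind unfolded proteins and help them to fold, and their genes are read out as a sign of protein stress. In the cytosol, HSP70 proteins work with J proteins, which stimulate their ATPase, and with HSP110 proteins, which exchange their nucleotide; heat shock factor 1 (HSF1) switches on the inducible members when unfolded protein accumulates. The endoplasmic reticulum (ER) has its own HSP70 (BiP, the product of Hspa5), lectin chaperones and protein disulphide isomerases, induced by the unfolded protein response, and mitochondria have the HSP60 and HSP10 chaperonin, made from Hspd1 and Hspe1.

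The 4 libraries differed in depth. After cells with fewer than 500 genes or more than 10% mitochondrial UMIs were set aside, 967 and 915 cells remained in the week 5 libraries (replicates 1 and 2), with medians of 6157 and 2489 UMIs, and 929 and 917 cells in the week 0 libraries, with medians of 1531 and 3945 UMIs. All 10 microglia markers listed for the check of the sort were present in every library, with summed levels of 17494 and 21537 UMIs per 1000000 (CPM) at week 5, against 29138 and 33578 CPM at week 0. Markers of other cells were less abundant but uneven. The 5 choroid plexus markers summed to 1972 and 2147 CPM at week 5, against 850 and 4.59 CPM at week 0. The 12 border-associated macrophage markers summed to 483 and 308 CPM at week 5, against 470 and 46.3 CPM at week 0. The 10 T or NK cell markers summed to 2.60 and 211 CPM at week 5, against 2.11 and 5.90 CPM at week 0, and the neutrophil markers (7 of 10 listed in the tables) to 3.22 and 1.53 CPM at week 5, against 0.422 and 289 CPM at week 0. The part of these differences in the results below was not tested gene by gene, but the main counts were repeated without the 4 clusters that markers of other cells led, none of which was led by neutrophil markers.

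No chaperone gene passed the test between week 5 and week 0. Of the 80 members, 67 had enough counts to be tested, and 0 of the 67 passed an adjusted p of 0.05 in edgeR's quasi-likelihood test, beside 304 of all 11259 genes tested (2.7%; 2.45% higher and 0.249% lower at week 5). DESeq2 and limma-voom also called 0 members, beside 2.88% and 2.27% of all genes, and 4 members had an unadjusted p under 0.05, beside 13.8% of all genes. Transcripts of the 80 members made up 0.648% and 0.635% of the UMIs of the week 5 libraries, against 0.708% and 0.823% in the week 0 libraries. With the libraries scaled by TMM factors (which set the bulk of genes level), the 80 members summed to 7750 and 6252 CPM at week 5, against 6536 and 7682 CPM at week 0, so the weeks overlapped.

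The log2 fold changes of the 67 tested members, week 5 over week 0, had a median of 0.02 (-0.13 with cells thinned to 1000 UMIs, and -0.06 to 0.13 when 1 library was left out) and ran from -0.63 to 0.91, beside a median of -0.01 over all genes. For 55 of the 67 the 95% interval lay inside a 2-fold change in either direction (82.1%, beside 60.2% of all genes), so for these members a change of more than 2-fold lay outside the interval. Both week 5 libraries were above both week 0 libraries for 10 tested members (14.9%, beside 21.1% of all genes) and below both for 7 (10.4%, beside 22.2%), and the 2 weeks overlapped for the other 50.

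**Figure D1:**
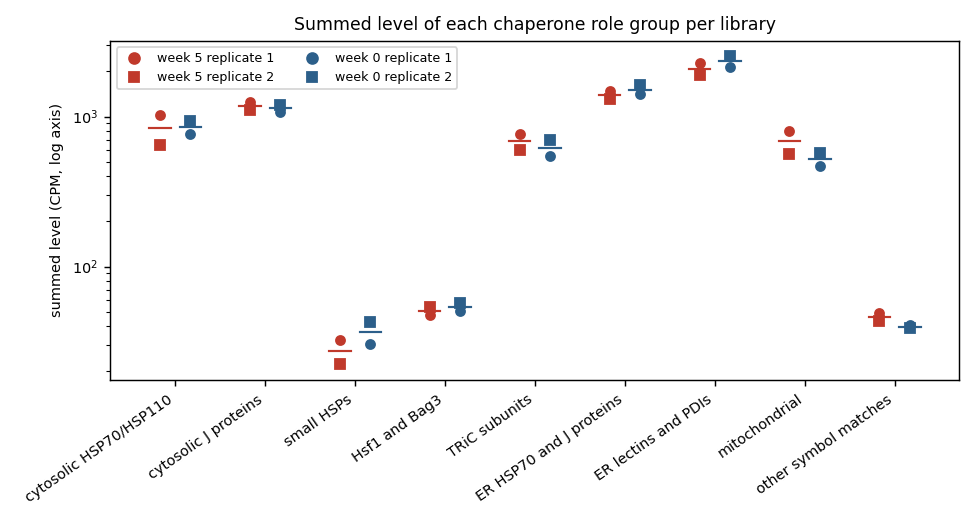
Summed level of each chaperone role (CPM, log axis) in the 4 libraries, week 5 left of week 0 within each role; each point is 1 library. ER lectins and disulphide isomerases carried the highest sum (1901 to 2530 CPM over the 4 libraries), small heat shock proteins were low (22.4 to 43.0 CPM), and the mitochondrial sum of week 5 replicate 1 (806 CPM) stood above those of the other libraries (468 to 573 CPM).

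Promoters of the members were searched for the elements that heat shock factors and the ER stress factors are known to bind. Windows from 250 bases before to 50 bases after the start site were taken from RefSeq (GRCm38.p6) and read on both strands, with 86 windows for 67 of the 80 members among 32851 windows in all. Members without a window, among them Hspa8, Hspa9, Hspa13 and Hsf1, were not searched. A heat shock element of 3 units, GAA and TTC in turn with 2 bases of any kind between them, lay in 6.98% of member windows and 0.603% of all windows, but the 6 member windows hold 3 distinct sites, since genes or start sites close together share them. The form with 2 units, GAANNTTC or TTCNNGAA, which every longer element contains, lay in 24.4% of member windows and 15.1% of all windows. The ER stress element, CCAAT and CCACG with 9 bases between them, lay in 5.81% of member windows and 0.119% of all, and ER stress element II, ATTGG and CCACG with 1 base between them, in 1.16% of member windows and 0.0365% of all. A match is a description of the letters and says nothing of binding in these cells.

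The sites with 3 units are shown because they include both subunits of the mitochondrial chaperonin. Each line has 30 bases, 5′ to 3′ on the strand given, with the matched letters in capitals. The windows of Hspe1 and Hspd1 overlap by 285 of their 300 bases, so the site of Hspe1 is also that of Hspd1, read from the other strand. In it 2 such elements overlap to make a longer run than in Dnajb6 or Hsph1.
Hspe1, chr1:55088053-55088082, plus strand: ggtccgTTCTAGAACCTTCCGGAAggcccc
Dnajb6, chr5:29735844-29735873, plus strand: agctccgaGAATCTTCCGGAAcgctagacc
Hsph1, chr5:149636287-149636316, minus strand: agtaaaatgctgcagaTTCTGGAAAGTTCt

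The log2 fold changes of these 4 genes, week 5 over week 0, ran from -0.33 (Hsph1) to 0.91 (Hspe1), with a median of 0.23 and 0 called.

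The ER stress elements are shown so that the ER members can be set beside each other. The lines are aligned on the strand that spells the element, which for Calr is the strand opposite to the gene.
Hspa5, chr2:34772020-34772049, plus strand: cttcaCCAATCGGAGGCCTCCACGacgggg
Pdia6, chr12:17266486-17266515, plus strand: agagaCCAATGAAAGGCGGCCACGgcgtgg
Canx, chr11:50325794-50325823, minus strand: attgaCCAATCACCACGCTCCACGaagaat
Dnajc3, chr14:118937822-118937851, plus strand: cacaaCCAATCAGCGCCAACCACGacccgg
Calr, chr8:84847069-84847098, plus strand: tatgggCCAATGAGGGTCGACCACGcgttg
Dnajb11, chr16:22857843-22857872, plus strand: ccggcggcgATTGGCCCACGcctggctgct

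The wider promoter of Calr, the member with the highest mean level, is given on the strand of the gene from 210 to 11 bases before its start (chr8:84846942-84847141, minus strand), with the element in capitals.
Calr promoter: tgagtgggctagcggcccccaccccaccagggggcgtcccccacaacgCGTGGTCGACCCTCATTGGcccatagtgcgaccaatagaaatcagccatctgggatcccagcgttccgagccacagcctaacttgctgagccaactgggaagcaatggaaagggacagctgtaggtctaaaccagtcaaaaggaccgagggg

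All 6 members with an ER stress element of either form had a log2 fold change below 0, week 5 over week 0. It ran from -0.30 (Pdia6) to -0.15 (Dnajb11), with a median of -0.18, and 0 of the 6 were called. Of the 6, 3 were below 0 when week 0 replicate 2 was left out and 4 when week 5 replicate 2 was left out. Pdia6 had 284 and 296 CPM at week 5, against 338 and 376 CPM at week 0, with both week 5 libraries below both week 0 libraries. Canx had 482 and 401 CPM at week 5, against 475 and 520 CPM at week 0, overlapping. The group was set out by its letters with the fold changes already seen, so its shared sign is a description.

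A few constitutive members held much of the signal. Calr (calreticulin), Hspa8 (the constitutive cytosolic HSP70, HSC70), Hspa5, Pdia3 and Canx (calnexin) together held 39.6% to 45.4% of the members' UMIs, depending on the library. Each captured transcript gives 1 count whatever its length, so these levels were not scaled by length. Whether capture and mapping are alike between genes was not tested.

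In the cytosol, Hspa8 had 833 and 463 CPM in the week 5 libraries and 605 and 725 CPM in the week 0 libraries. The 2 week 5 libraries were the highest and the lowest of the 4, and the log2 fold change was -0.04 with a standard error (SE) of 0.34 (adjusted p = 0.979, edgeR). Hspa4, an HSP110 relative that acts as a nucleotide exchange factor for HSP70, had 123 and 112 CPM at week 5, against 84.6 and 129 CPM at week 0, also overlapping. Hsph1 (HSP105), a heat-inducible member of the same family, was low in every library, at 15.7 and 15.7 CPM at week 5, against 16.8 and 22.2 CPM at week 0. Its log2 fold change was -0.33 (SE 0.26, adjusted p = 0.686, edgeR). The 7 tested cytosolic HSP70 and HSP110 genes had a median log2 fold change of 0.09, with 4 above 0. That median was below 0 under several alternatives, at -0.37 with cells thinned to 1000 UMIs (4 genes tested), -0.05 without the clusters led by other cell types and -0.07 without week 5 replicate 1.

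The strictly heat-inducible HSP70 genes were close to absent. Hspa1a had 0 and 0 UMIs in the week 5 libraries and 0 and 7 UMIs in the week 0 libraries, and Hspa1b had 6 and 6 UMIs at week 5, against 1 and 6 UMIs at week 0. On the scale of total UMIs, a count of 0 allows a level of up to 0.459 and 0.920 CPM in the 2 week 5 libraries and up to 1.27 and 0.655 CPM in the 2 week 0 libraries, for counting error only. Hspa1a and Hspa1b are near-identical copies, so reads may be lost or split between them and their counts are uncertain.

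The factors and cofactors of the heat shock response also lay within the spread of the libraries. Hsf1, the transcription factor itself, had 31.3 and 38.7 CPM at week 5, against 35.9 and 39.1 CPM at week 0. Bag3, an HSP70 cofactor that HSF1 induces, had 16.5 and 15.4 CPM at week 5, against 14.8 and 18.3 CPM at week 0. Dnajb1 (HSP40), the stress-inducible J protein, had 38.1 and 29.3 CPM at week 5, against 24.6 and 34.4 CPM at week 0. For all 3 the weeks overlapped and the adjusted p was between 0.840 and 0.951 (edgeR).

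Of 23 cytosolic and nuclear J proteins, 19 were tested and 0 called, with a median log2 fold change of 0.04. Dnajb6, which keeps aggregation-prone proteins soluble, had 210 and 185 CPM at week 5, against 178 and 170 CPM at week 0. Dnaja1, a partner of HSC70, had 209 and 163 CPM at week 5, against 182 and 212 CPM at week 0. The 2 weeks did not overlap for Dnajb6, whose log2 fold change was 0.18 (SE 0.22, adjusted p = 0.815, edgeR), and overlapped for Dnaja1. The untested J protein genes Dnajb3, Dnajb7, Dnajb13 and Dnajc6, like the TRiC gene Cct6b, had at most 2.65 CPM in any library.

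Small heat shock proteins, ATP-independent holdases, were barely detected: 5 of the 6 fell below the count needed for a test. Hspb1 (HSP25) had 6 and 3 UMIs at week 5, against 2 and 1 UMIs at week 0, and Hspb6 had 12 and 7 UMIs at week 5, against 6 and 10 UMIs at week 0. Hspb3 was the exception, at 28.2 and 19.3 CPM at week 5, against 27.3 and 40.5 CPM at week 0, with overlapping weeks and a fitted difference on the log2 scale of -0.52 (SE 0.28, adjusted p = 0.478, edgeR).

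The TRiC chaperonin, which folds actin and tubulin, was present throughout, with Cct2 at 130 and 110 CPM in week 5 and 94.3 and 124 CPM in week 0 libraries. Cct6a had 126 and 92.7 CPM at week 5, against 90.1 and 125 CPM at week 0. All 7 tested subunits had a log2 fold change above 0, from 0.02 to 0.31 (median 0.12), and 0 were called. That shared sign depended on single libraries, with 3 of 7 above 0 without week 0 replicate 1 and 2 of 7 without week 5 replicate 1. With library size alone as the scale, which lowered the median of all genes to -0.24, 1 of 7 was above 0, while the median of the subunits relative to all genes was 0.12, beside 0.14 with TMM factors.

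**Figure D2:**
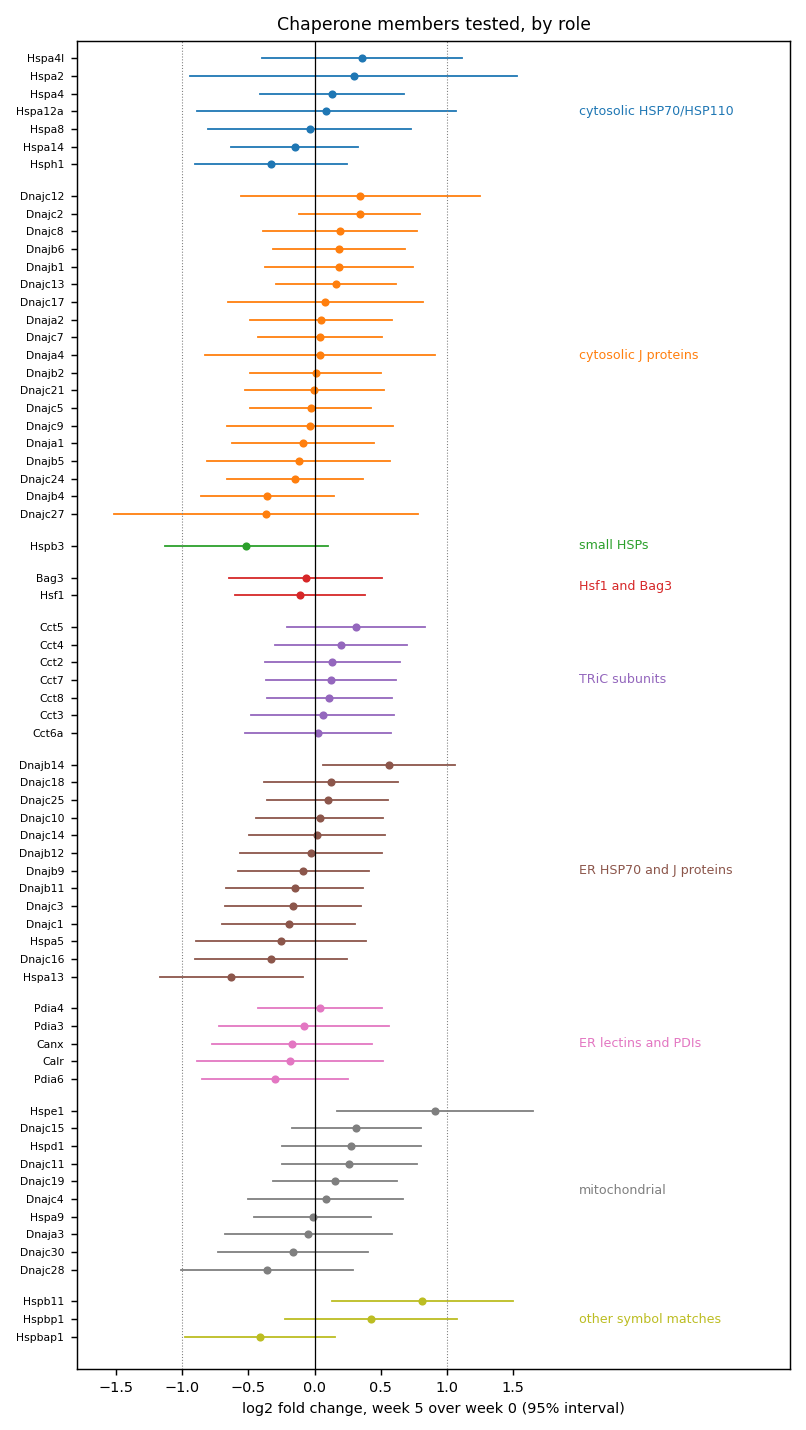
Log2 fold change of each of the 67 tested members (x axis, week 5 over week 0; above 0 means higher at week 5), grouped by role; points are the edgeR estimates and bars their 95% intervals. Intervals include 0 for 63 of the 67 members, Hspe1 lies farthest above 0 (0.91) and Hspa13 farthest below (-0.63).

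In the ER, Hspa5 had 615 and 512 CPM in the week 5 libraries and 624 and 722 CPM in the week 0 libraries. The week 5 libraries were both below the week 0 libraries, though replicate 1 of each week differed by little, and the log2 fold change was -0.25 (SE 0.29, adjusted p = 0.799, edgeR). Calr, a calcium-binding lectin chaperone, had 753 and 551 CPM at week 5, against 642 and 841 CPM at week 0. Pdia3 (ERp57), the disulphide isomerase that works with the lectins, had 640 and 546 CPM at week 5, against 578 and 677 CPM at week 0. Dnajb9 (ERdj4), a J protein that the unfolded protein response induces, had 76.0 and 58.0 CPM at week 5, against 63.5 and 78.4 CPM at week 0. These 3 genes overlapped between the weeks. Of the 5 lectin and disulphide isomerase genes, 4 had a log2 fold change below 0, but 2 of 5 did so without week 0 replicate 2 or without week 5 replicate 2. All 5 did so without replicate 1 of either week, with cells thinned to 1000 UMIs and with the same limit on genes per cell.

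Among the 13 ER members of the HSP70 and J protein families, 2 had an unadjusted p under 0.05, a share near the 13.8% of all genes, and they lay on opposite sides of 0. Dnajb14, a J protein of the ER membrane (chr3:137867675-137916557, plus strand, GRCm38), had 208 and 173 CPM at week 5, against 131 and 127 CPM at week 0. Both week 5 libraries were above both week 0 libraries, and the log2 fold change of week 5 over week 0 was 0.56 (SE 0.22, adjusted p = 0.282, edgeR). Within the clusters of cells filled by all libraries the weeks overlapped for Dnajb14, as set out below. Hspa13, a microsomal HSP70 (chr16:75745431-75767104, minus strand, GRCm38), had 44.3 and 33.2 CPM at week 5, against 50.3 and 69.5 CPM at week 0. Both week 5 libraries were below both week 0 libraries, and the log2 fold change of week 5 over week 0 was -0.63 (SE 0.24, adjusted p = 0.262, edgeR). Hspa13 was picked out after its values were seen, and it passed the threshold when each cell was thinned to 1000 UMIs (log2 fold change -1.22, adjusted p = 0.0423, edgeR; 2.5% of all genes called) and without week 5 replicate 1 (-0.86, adjusted p = 0.0497, edgeR; 3.59% of all genes called), with an adjusted p of up to 0.866 under the other alternatives.

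The largest log2 fold change of the tested members was that of a mitochondrial gene. Hspe1 (HSP10, chr1:55088132-55091307, plus strand, GRCm38), the lid of the mitochondrial chaperonin, had 374 and 183 CPM in the week 5 libraries and 133 and 163 CPM in the week 0 libraries, with means of 279 ± 135 CPM at week 5, against 148 ± 21.3 CPM at week 0 (SD, n = 2 each). Both week 5 libraries were above both week 0 libraries, but week 5 replicate 2 lay closer to the week 0 libraries than to week 5 replicate 1. The log2 fold change was 0.91 (SE 0.33, 95% interval 0.17 to 1.65, adjusted p = 0.231, edgeR), so it did not pass the test.

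The value of Hspe1 turned on week 5 replicate 1. Without week 5 replicate 2 the log2 fold change was 1.37 (adjusted p = 1.53e-06, edgeR), in a fit that called 12.5% of all genes and assumed that the lone week 5 library varied like the week 0 libraries, and without week 5 replicate 1 it was 0.30 (adjusted p = 0.846, edgeR), the lowest and highest adjusted p over 17 alternatives. With no filter on low counts it was 0.90 (adjusted p = 0.0288, edgeR), in a fit that called 5.76% of all genes. Hspd1 (HSP60, chr1:55077835-55088243, minus strand, GRCm38), the barrel of the same chaperonin and the neighbour of Hspe1 on the opposite strand, had 119 and 88.5 CPM at week 5, against 74.1 and 96.8 CPM at week 0. Its weeks overlapped, and its log2 fold change was 0.28 (SE 0.24, adjusted p = 0.717, edgeR). The annotated starts of the 2 genes overlap head to head, while the libraries read the 3′ ends of transcripts. The sources used here do not give the use of strand in counting. Of 10 tested mitochondrial genes, 6 had a log2 fold change above 0 (median 0.12) and 0 were called. The median was -0.04 with the same limit on genes per cell in every library and -0.18 with cells thinned to 1000 UMIs, with 4 of 10 above 0 in each, and 5 to 9 of 10 were above 0 when 1 library was left out.

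Of the 3 genes that match by symbol alone, Hspb11 (chr4:107253593-107279938, plus strand, GRCm38), also named Ift25 and known as a part of the intraflagellar transport machinery of cilia, had 22.7 and 14.2 CPM at week 5, against 10.9 and 10.4 CPM at week 0. Both week 5 libraries were above both week 0 libraries, and the log2 fold change of week 5 over week 0 was 0.81 (SE 0.31, adjusted p = 0.250, edgeR). It rests on 124 and 47 UMIs at week 5, against 28 and 51 UMIs at week 0. Hspb11 and Dnajb14 passed the threshold only without week 5 replicate 2. That fit, in which Hspe1 also passed, rests on a lone week 5 library and called a larger share of all genes than the main fit. Over 17 alternatives the log2 fold change ran from 0.42 to 1.14 for Hspb11 and from 0.33 to 0.73 for Dnajb14. Hspbap1 had 13.7 and 14.5 CPM at week 5, against 20.3 and 17.5 CPM at week 0, and the log2 fold change of week 5 over week 0 was -0.41 (SE 0.26, adjusted p = 0.567, edgeR).

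**Figure D3:**
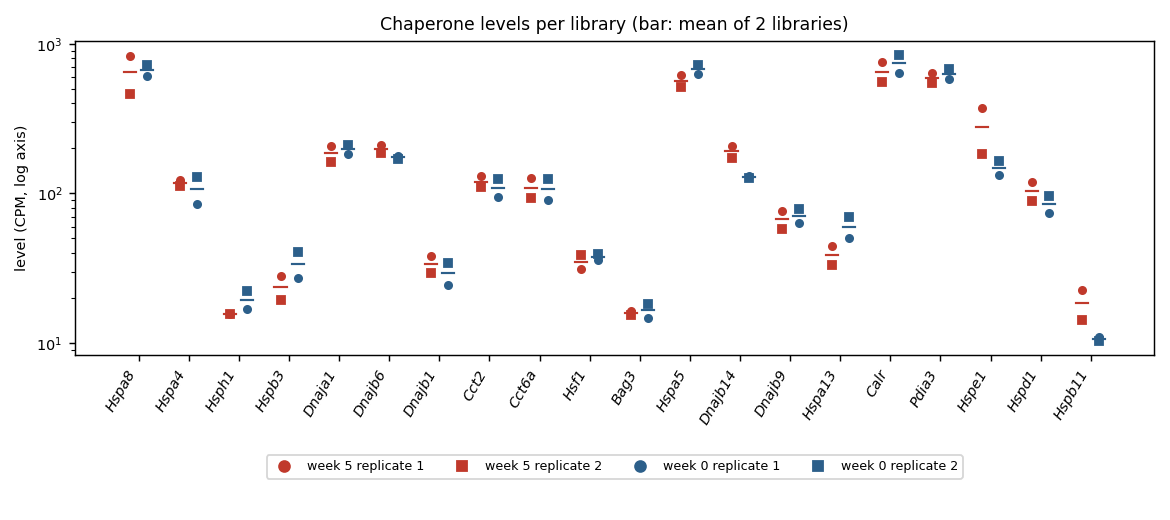
Level (CPM, log axis) of 20 named chaperone genes in each library, week 5 left of week 0 within each gene; each point is 1 library. Hspe1 in week 5 replicate 1 stands above the other libraries (374 CPM, against 133 to 183 CPM), while Hspa8, Calr, Pdia3, Hsf1 and Bag3 overlap between the weeks.

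Genes that work with the chaperones were counted in lists kept apart from the 80, beside 2.7% of all genes called (2.45% higher and 0.249% lower at week 5). Of 28 HSP90 genes and cochaperones, 27 were tested and 1 passed in the positive direction: Fkbp5, an HSP90 cochaperone of the glucocorticoid receptor that glucocorticoids induce, rose to 204 and 318 CPM at week 5, against 90.5 and 65.2 CPM at week 0. Its log2 fold change was 1.75 (SE 0.29, adjusted p = 0.0109, edgeR), and it lost the call without week 0 replicate 2 (adjusted p = 0.0636, edgeR; from 1.74e-15 to 0.0636 over 17 alternatives). Of 33 genes of the unfolded protein response, 31 were tested and 0 passed. Their log2 fold changes had a median of 0.03 but ran from -0.43 to 4.31, and the lowest adjusted p was 0.0582 (edgeR). Of 13 genes of mitochondrial proteostasis, 13 were tested and 0 passed. The log2 fold changes of that list had a median of 0.03 and ran from -0.52 to 1.45, with a lowest adjusted p of 0.0861 (edgeR). An unadjusted p under 0.05 was found for 3 tested genes of the HSP90 list and 2 of each of the other 2 lists, beside 13.8% of all genes. Of 18 genes known to respond to tissue dissociation, 18 were tested and 1 passed: Atf3, a stress-induced transcription factor, rose to 87.8 and 53.5 CPM at week 5, against 14.0 and 13.9 CPM at week 0 (log2 fold change 2.35, SE 0.28, adjusted p = 0.00257, edgeR). Of these 18 genes, 12 had a log2 fold change above 0 (median 0.31) and 6 had an unadjusted p under 0.05, beside 13.8% of all genes. In sum the 18 came to 1663 and 1564 CPM at week 5, against 1680 and 1553 CPM at week 0, and their part in the members' levels was not tested.

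The levels were then read within clusters of cells, made with the members and the related lists left out of the clustering genes. Clusters are called by the gene that led them, and their levels are CPM of all UMIs of the cluster in that library, with no test. On the scale of total UMIs, over all cells, the log2 fold changes of all genes had a median of -0.24. Cells were unevenly spread: the Spp1-led cluster held 175 and 29 cells of the week 5 libraries and 1 and 0 cells of the week 0 libraries. A pair of shallow clusters, led by Gm43221 and Insyn2b, held 21.5% and 39.7% of the week 5 cells and 72.6% and 15.9% of the week 0 cells.

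Of the clusters with at least 20 cells of a library, Hspe1 was highest in the Spp1-led cluster, at 436 and 361 CPM in the week 5 libraries. That cluster held 53.0% of the Hspe1 UMIs of week 5 replicate 1, with 38.0% of all its UMIs, and 11.2% of those of week 5 replicate 2, with 5.78% of all its UMIs. Outside the cluster the week 5 libraries had 237 and 175 CPM of Hspe1 on the scale of total UMIs, against 144 and 175 CPM over all cells of the week 0 libraries. In the deeper clusters filled by all libraries the values of the weeks lay close together: the Gp9-led cluster had 224 and 210 CPM at week 5, against 205 and 199 CPM at week 0, and the Camk2n1-led cluster had 162 and 161 CPM at week 5, against 141 and 161 CPM at week 0. The shallow Gm43221-led cluster was low in every library, at 63.7 and 57.2 CPM at week 5, against 58.0 and 42.5 CPM at week 0. The shallow Insyn2b-led cluster, with 7 to 13 Hspe1 UMIs a library, had 134 and 49.4 CPM at week 5, against 60.9 and 135 CPM at week 0. In the Ddit4-led cluster Hspe1 had 254 and 222 CPM at week 5, against 333 CPM (30 UMIs) in the 20 cells of week 0 replicate 2. Hspd1 in the Spp1-led cluster had 101 and 191 CPM in the week 5 libraries, and the cluster held 38.8% and 12.3% of their Hspd1 UMIs.

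Hspa5 and Hspa8 showed another pattern inside clusters. In all 4 clusters with at least 20 cells of every library (led by Gp9, Gm43221, Insyn2b and Camk2n1), both week 5 libraries were below both week 0 libraries for each gene. The Insyn2b-led cluster rests on few week 5 counts, 21 and 35 UMIs for Hspa5 and 19 and 18 UMIs for Hspa8. Summed ER lectins and disulphide isomerases, which hold neither gene, were also below in all 4. In the Gp9-led cluster they had 2330 and 2601 CPM at week 5, against 2660 and 2745 CPM at week 0. The ER HSP70 and J protein sum (with Hspa5) and the cytosolic HSP70 and HSP110 sum (with Hspa8) did so too. Sums of other roles overlapped in some clusters. In the Camk2n1-led cluster Hspa5 had 571 and 548 CPM at week 5, against 882 and 776 CPM at week 0. In the Gp9-led cluster the gap was narrower, with 653 and 584 CPM at week 5, against 693 and 768 CPM at week 0. Hspa8 had 636 and 424 CPM at week 5, against 725 and 779 CPM at week 0 in the Camk2n1-led cluster, and 645 and 429 CPM at week 5, against 777 and 804 CPM at week 0 in the Gp9-led cluster.

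Hspa5 and Hspa8 were 2 of the 5 tested members with a mean of at least 400 CPM. Over all genes of that level, 11 of 327 lay below in all 4 clusters (3.36%) and 12 lay above (3.67%), and over all 11259 tested genes 43 did so below (0.382%) and 59 above (0.524%). The clusters come from the same 4 libraries and are not replicates of each other, and this pattern and its level limit were chosen after the values were seen. In the Ddit4-led cluster, which held 338 and 233 week 5 cells, Hspa8 had 582 and 498 CPM at week 5, against 732 CPM in the 20 cells of week 0 replicate 2. In other clusters with few week 0 cells its week 5 levels were 802 and 674 CPM (Spp1-led), 748 and 540 CPM (Cxcl10-led) and 867 and 501 CPM (Ccl4-led). Dnajb14 overlapped between the weeks in each of the 4 clusters filled by all libraries. In the Camk2n1-led cluster it had 110 and 157 CPM at week 5, against 169 and 144 CPM at week 0. Its highest levels were in the Mrc1-led cluster, which border-associated macrophage markers led, at 340 and 304 CPM at week 5. The part of the cell mix in its fold change was not tested.

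**Figure D4:**
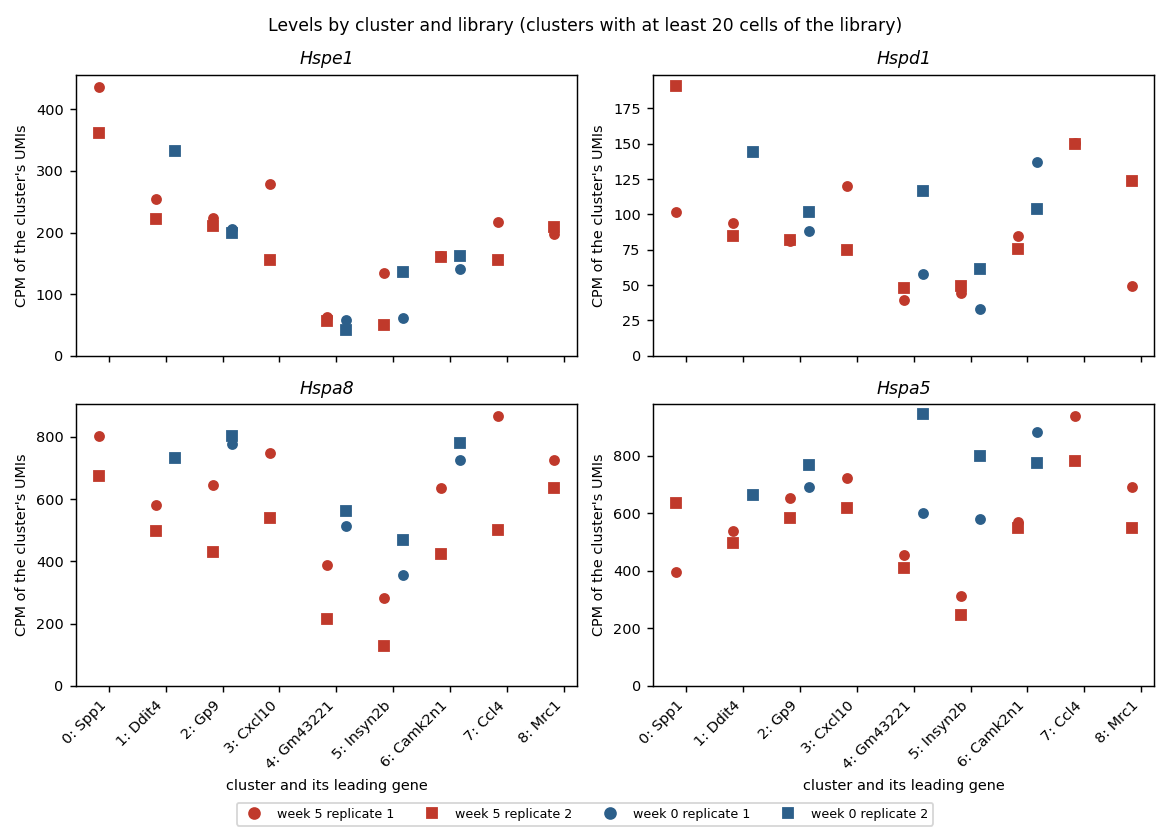
Levels of Hspe1, Hspd1, Hspa8 and Hspa5 (y axis, CPM of the UMIs of the cluster in that library) in each cluster with at least 20 cells of a library (x axis, with the gene leading the cluster); colour gives the week, week 5 left of week 0, and shape the replicate. Hspe1 peaks in the Spp1-led cluster (436 and 361 CPM at week 5), and Hspa5 and Hspa8 lie lower at week 5 in the 4 clusters filled by all libraries.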

How the data were processed

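Per the labels, the 4 libraries came from a droplet kit for 3′ ends of transcripts. The values the authors deposited are raw UMI counts (whole numbers, for each gene in each of 1000 barcodes a table), by the values themselves. The choice of barcodes and genes is one step not given in the sources used here, and the submitters' processing notes list STAR, Cell Ranger 3.0.0, Seurat 4 and mm10 without their roles. A gene missing from a table was taken as 0 there.

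Of 4000 barcodes, the 3728 with no fewer than 500 genes and no more than 10% mitochondrial UMIs were kept, and any 2 libraries shared at most 2 barcodes. Total deposited UMIs were 6559032 and 3322818 at week 5 and 2415001 and 4631622 at week 0. Counts were summed per library over all cells kept and tested with edgeR 4.0.16 (R 4.3.3; TMM factors, its filter on low counts, quasi-likelihood test, two-sided) over all genes at once, with Benjamini-Hochberg adjustment and a threshold of 0.05. The test was checked on 10 sets of simulated counts, each with 200 changed genes of at least 32 CPM. It recovered 55.7% of 2-fold changes and 99.8% of 4-fold changes, and 3.47% of its calls were false. Each simulated gene was given the spread typical of genes of its level, so genes that vary more are not covered. Levels are CPM of the TMM-scaled library, of the cluster's UMIs where a cluster is named, and of all UMIs for marker sums and floors. Floors are 3 counts, and the intervals of fold changes are 95% intervals from the fit. Intervals and floors for counts cover counting error only. Log2 fold changes of low genes are drawn towards 0 by the fit's prior count.

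Cells were clustered with scanpy 1.11.5 (2000 variable genes, 30 principal components, 15 neighbours, Leiden resolution 1). Doublets stayed in, and scrublet marked 21 of 3728 cells (0.563%). Coordinates are from the GENCODE annotation of GRCm38, which mm10 also names, and 79 of the 80 members were found in it. Alternatives were DESeq2 1.42.0, limma-voom (limma 3.58.1), other scalings and filters, cells thinned to 1000 UMIs (906 and 810 cells at week 5, 784 and 847 at week 0), sums without the clusters led by other cell types' markers, a replicate block and leaving out each library. Genes were named with values if they passed the test, were the 2 most abundant of a role, stood on a short list of stress-inducible members, or were called in a related list; the others named were chosen after their values or motifs were seen. The members, lists and tests were chosen with earlier results of these data known.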

Additional observations from a re-analysis of the deposited data

How the results depend on the processing

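Between week 5 and week 0, DESeq2, limma-voom, library size alone and all barcodes called 2.27% to 3.41% of all genes. Cells of at least 2000 UMIs, no marked doublets and the same limit of genes per cell in every library called 2.48% to 4.71%. The sums without clusters led by other cell types called 3.37% to 3.77%. The count of 0 members called held under all of these. It was 1 with thinned cells (Hspa13) and 1 with no gene filter (Hspe1), and 0 to 3 when 1 library was left out. The 304 genes called over all genes became 514 with that limit, 920 with no gene filter and 298 to 1484 when 1 library was left out (1484 without week 5 replicate 2, 618 without week 0 replicate 1). The summed level of all members, a log2 ratio of -0.02, was -0.25 with library size alone, a scale that moved the median of all genes to -0.24. It was -0.15 with thinned cells, where 20 of 58 members were above 0 and the median of all genes was -0.02, and -0.19 to 0.12 when 1 library was left out. Of 391 recomputed values for 23 named genes, 355 kept their direction and side of the threshold, 1 lost its call, 6 gained one and 29 changed sign, in 12 genes whose log2 fold change was at most 0.19 in size; the cause was not tested. Those log2 fold changes were as follows. With library size alone it was -0.096 for Cct2, -0.22 for Cct6a, -0.056 for Dnajb1, -0.044 for Dnajb6, -0.094 for Hspa4. With cells thinned to 1000 UMIs it was 0.16 for Bag3, -0.012 for Dnajb1. With the limit of 2996 genes per cell it was -0.014 for Hspa4. With cells of at least 2000 UMIs it was -0.017 for Cct6a. Without clusters led by other cell types at resolution 0.5 it was 0.014 for Bag3. When 1 library was left out it ran from -0.21 to 0.11 for Bag3, -0.43 to 0.063 for Calr, -0.052 to 0.35 for Cct2, -0.22 to 0.29 for Cct6a, -0.28 to 0.12 for Dnaja1, -0.032 to 0.47 for Dnajb1, -0.30 to 0.13 for Dnajb9, -0.22 to 0.042 for Hsf1, -0.14 to 0.48 for Hspa4, -0.52 to 0.36 for Hspa8 and -0.20 to 0.069 for Pdia3. The replicate numbers paired no samples: deviations of same-numbered libraries correlated at -0.04 over genes, and the replicate block called 336 genes and 0 members. With 2 libraries a week, depth limits what can be seen for the 13 members below the count filter. Tested members are limited too: the test recovered 55.7% of simulated 2-fold changes in genes of at least 32 CPM, so such changes can be missed. That rate does not cover tested members below 32 CPM, among them Hsph1, Bag3, Dnajb1 and Hspb3 (means of 17.6, 16.3, 31.6 and 28.8 CPM over the libraries).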
